A study of Mus musculus with 6 samples.

Results

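The subject is 9 enzymes and enzyme subunits of the tricarboxylic acid (TCA) cycle in the mouse right atrium (RA): Cs, Idh3a, Idh3b, Idh3g, Ogdh, Dlst, Suclg1, Fh1 and Mdh2. The rule lists them by gene name and uses no measured value, though the list was drawn up with earlier results of these data known. All 9 were found, each on a single row, among 54093 genes in the expression table, and all 9 were among the 12627 genes with a mean expression of at least 1 FPKM (fragments per kilobase of gene length, scaled to the size of the library). The 6 libraries hold total RNA from RA myocardium of wild-type C57BL/6 mice of either sex at P21, 3 from sham-operated mice and 3 from mice with volume overload (VO). VO was made in the pups by aortocaval fistula (ACF) surgery, a needle puncture from the abdominal aorta into the inferior vena cava that returns more blood to the right heart, and the sham mice had surgery as well. The sources used here do not say whether a library came from 1 RA or from a pool, so p-values measure the spread between libraries. In bulk RNA, fewer cells of a type and less RNA per cell cannot be told apart.

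The TCA cycle runs in the mitochondrial matrix. It oxidizes acetyl-CoA from fatty acids, glucose and ketone bodies to carbon dioxide and passes the electrons to the respiratory chain as NADH and as reduced flavin. Working heart muscle draws most of its ATP from this route, and the capacity for it grows as cardiomyocytes mature after birth.

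All 9 transcripts had a lower mean in VO than in sham on the log2 scale, but no difference exceeded the spread between libraries, and the direction held for 6 of 9 with TPM or quantile normalization and for 8 of 9 with scaling by fragment totals. The log2 fold changes ran from -0.41 for Idh3b to -0.02 for Ogdh. Their median was -0.30, and it was -0.01 over all 12627 genes tested. None of the 9 had an unadjusted p under 0.05 in limma's moderated test or with voom on recovered fragments, none had an adjusted p under 0.05, and the sham and VO values overlapped in all 9. Of all genes tested, 12.0% had an unadjusted p under 0.05 (3.89% higher and 8.08% lower in VO), 21.2% did not overlap between the groups and 0.00792%, which is the single gene Nppb, passed after Benjamini-Hochberg adjustment. The paper, with DESeq2 on read counts, reports far more genes at an adjusted p under 0.05, and that test was not repeated here. With TPM in place of the main scaling, the calls at an unadjusted p under 0.05 turned from 491 higher and 1020 lower to 1085 higher and 486 lower, the median of all genes was 0.13 and that of the 9 members was -0.17. These 2 medians were 0.08 and -0.21 with fragment totals and 0.002 and -0.05 with quantile normalization. They were -0.007 and -0.07 with array weights, and -0.005 and -0.14 with the trend in expression level and gene length removed. The gap between members and all genes thus depended on the setting.

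The VO libraries differed widely from each other. VO 1 was the lowest of the 6 libraries for 9 of 9 members, at 0.498 to 0.754 of the sham mean. VO 2 followed at 0.813 to 1.06 and VO 3 at 0.929 to 1.20 of the sham mean, and the order VO 3 above VO 2 above VO 1 was found in 9 of 9. VO 3 lay within the sham range for 5 members and above it for 4, while VO 2 lay within it for 3 and below it for 6. The highest VO value was 1.41 to 2.04 times the lowest, against 1.04 to 1.37 times among sham libraries.

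Marker genes of several cell types also differed between libraries. The summed FPKM of 10 cardiomyocyte markers (Myh6, Tnnt2, Ttn, Myl7, Nppa and others) was 15320 to 21860 in sham, 7382 in VO 1, 14661 in VO 2 and 11078 in VO 3, and 9 of 10 were lowest in VO 1. Myl7, Nppa and Myh6 made up most of this sum. The 4 ventricular markers summed to 121 to 308 in sham and 92.7 to 143 in VO. The sum of 7 leukocyte markers was 138 to 161 in sham, 575 in VO 1, 161 in VO 2 and 201 in VO 3, and 7 of 7 were highest in VO 1. Of 8 fibroblast markers, 6 were highest in VO 1. The sum of the 8 was 886 to 929 in sham, 1384 in VO 1, 929 in VO 2 and 1156 in VO 3. Col3a1 was at 208 to 275 FPKM in sham and 475 in VO 1. The markers not highest in VO 1, Pdgfra (16.1 FPKM there) and Dcn (298), lay inside their sham ranges in that library. The 4 smooth muscle markers summed to 144 to 208 in sham and 57.6 to 108 in VO. Most of that sum was Acta2. Of the 3 markers tested, 2 were lower and 1 higher in VO, Myh11, with means of 4.44 FPKM in sham and 4.73 in VO. The 8 skeletal muscle markers summed to 147 to 203 in sham and 58.5 to 103 in VO. Nearly all of that sum was the single gene Ckm, at 143 to 199 FPKM in sham and 56.4 to 101 in VO. Only 3 of the 8 passed the filter, and all 3 were lower in VO. The 3 erythroid genes summed to 6164, 2162 and 1115 in sham 1 to 3 and to 7726, 638 and 946 in VO 1 to 3, so they were high in VO 1 and sham 1. Fat stood out in VO 3. The 4 brown fat markers summed to 5.04 to 8.12 in sham, 3.70 in VO 1, 8.11 in VO 2 and 320.2 in VO 3, and Ucp1 was at 0 in the other 5 libraries. The 4 white fat markers summed to 0.315 to 1.36 in sham, to 0 in VO 1 and VO 2, and to 304 in VO 3. Brown fat is itself rich in mitochondria. The part of these tissues in the TCA cycle values was not tested.

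**Figure D1:**
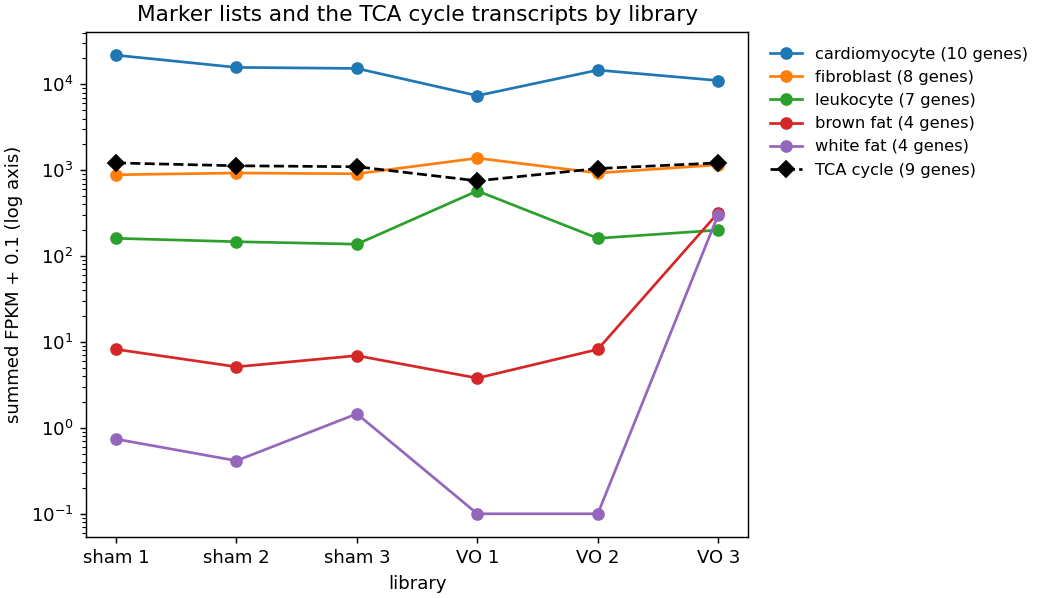
Summed FPKM plus 0.1 on a log axis of 5 marker lists and of the 9 TCA cycle transcripts in each library, with 1 point per library. The leukocyte sum is highest in VO 1 (575), both fat sums are highest in VO 3 (320.2 and 304), and the TCA cycle sum is lowest in VO 1 (753) and 1046 to 1218 in the other 5.

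Citrate synthase, encoded by Cs (ENSMUSG00000005683, GRCm38 chr10:128337734-128362479, + strand), joins acetyl-CoA to oxaloacetate and opens the cycle. Cs was read at 134, 141 and 144 FPKM in sham 1, 2 and 3 and at 100.1, 142 and 155 in VO 1, 2 and 3. VO 1 lay below every sham library while VO 2 was inside their range and VO 3 above it. The means were 139.8 ± 4.85 in sham and 132 ± 28.5 in VO (SD, n = 3 each), a log2 fold change of -0.10 with a 95% interval from -0.52 to 0.31 (limma's adjusted p = 0.786).

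NAD-dependent isocitrate dehydrogenase (IDH3) carries out the first oxidative decarboxylation and is a major point of control, activated by ADP and calcium. Its catalytic alpha subunit is encoded by Idh3a (ENSMUSG00000032279, chr9:54586334-54604661, + strand), and the beta and gamma subunits, needed for assembly and regulation, by Idh3b (ENSMUSG00000027406, chr2:130279309-130284547, - strand) and Idh3g (ENSMUSG00000002010, chrX:73778963-73786897, - strand). Idh3a was at 164, 134 and 137 FPKM in sham 1 to 3 and at 84.9, 119 and 153 in VO 1 to 3. Idh3b was at 113, 87.2 and 85.4 FPKM in sham and at 47.4, 77.5 and 96.9 in VO. Both had VO 1 and VO 2 below all sham libraries and VO 3 inside the sham range. For Idh3b, whose change was the largest of the 9, VO 1 was at 0.498 of the sham mean. Idh3a had a log2 fold change of -0.32 (95% interval -0.84 to 0.20, limma's adjusted p = 0.519) and Idh3b of -0.41 (-1.04 to 0.21, adjusted p = 0.502).

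Idh3g was at 133, 116 and 107 FPKM in sham and at 89.3, 111 and 135 in VO. VO 1 was again lowest, VO 2 was inside the sham range and VO 3 was the highest of all 6. It had a log2 fold change of -0.10 (95% interval -0.51 to 0.31, limma's adjusted p = 0.795). It is the X-linked member. Xist, the RNA that coats the inactive X, was at 28.2, 0.0097 and 40.8 FPKM in sham 1 to 3 and at 63.6, 50.6 and 0.0102 in VO 1 to 3, so each group held 2 libraries with Xist and 1 without. Within each library, the ratio of Idh3a to Idh3g was 1.24, 1.16 and 1.28 in sham and 0.951, 1.08 and 1.13 in VO. That of Idh3b to Idh3g was 0.853, 0.752 and 0.797 in sham and 0.531, 0.699 and 0.718 in VO. Neither ratio overlapped between the groups, whose means were 1.23 ± 0.0635 against 1.05 ± 0.0921 and 0.801 ± 0.0506 against 0.649 ± 0.103 (SD, n = 3 each). The two-sided exact permutation p was 0.1 for both, the smallest that 3 libraries against 3 allow, so this test cannot pass 0.05. After adjustment over the 11 ratios computed it was 0.55, and the other 9 ratios overlapped. Between Idh3a and Idh3b, the ratio was 1.45 to 1.61 in sham and 1.54 to 1.79 in VO (exact permutation p = 0.4).

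**Figure D2:**
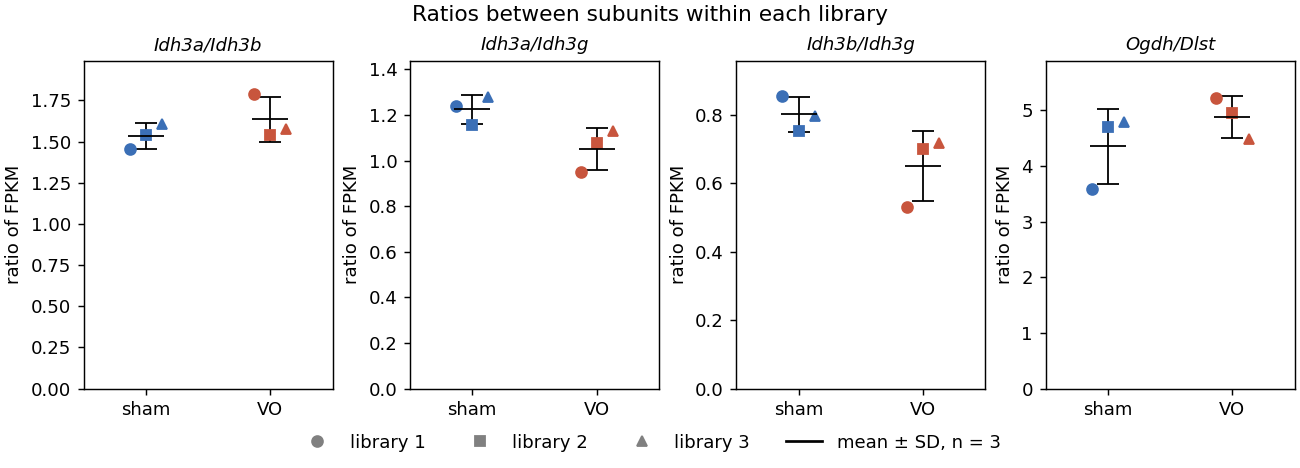
Ratio of FPKM between subunits of the same enzyme in each library (circles, squares and triangles are libraries 1, 2 and 3; lines are the mean ± SD, n = 3). Idh3a and Idh3b lie lower relative to Idh3g in all 3 VO libraries than in any sham library, while Idh3a to Idh3b and Ogdh to Dlst overlap.

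The alpha-ketoglutarate dehydrogenase complex takes the next oxidative step. Its decarboxylating E1 component is encoded by Ogdh (ENSMUSG00000020456, chr11:6291633-6356642, + strand) and its succinyl-transferring E2 core by Dlst (ENSMUSG00000004789, chr12:85110833-85134845, + strand). Ogdh was at 165, 209 and 213 FPKM in sham and at 145, 206 and 235 in VO. Its group means were the same to 3 digits, at 196 ± 26.6 and 196 ± 45.7 (SD, n = 3 each), and the log2 fold change was -0.02 with a 95% interval from -0.51 to 0.47 (limma's adjusted p = 0.970). Ogdh was also the member that followed the others least. Among sham libraries it was lowest in sham 1, as was Cs, while the other 7 members had their highest sham value there. Dlst was at 46.1, 44.5 and 44.5 FPKM in sham, the closest replicates of any member, and at 27.8, 41.7 and 52.4 in VO, where the highest was 1.88 times the lowest. Its log2 fold change was -0.20 (95% interval -0.71 to 0.32, adjusted p = 0.683). The ratio of Ogdh to Dlst was 3.58, 4.69 and 4.79 in sham and 5.23, 4.95 and 4.48 in VO (exact permutation p = 0.4).

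Succinyl-CoA ligase makes a nucleoside triphosphate directly from the thioester of succinyl-CoA, and Suclg1 (ENSMUSG00000052738, chr6:73248382-73276911, + strand) encodes the alpha subunit shared by its ATP- and GTP-forming versions. Suclg1 was at 66.8, 48.9 and 50.9 FPKM in sham and at 31.0, 45.9 and 62.0 in VO. Sham 1 and VO 3 were thus close, and VO 1 was at 0.558 of the sham mean. The log2 fold change was -0.30 with a 95% interval from -0.91 to 0.30 (limma's adjusted p = 0.591).

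Fumarase and malate dehydrogenase close the cycle by hydrating fumarate to malate and oxidizing malate back to oxaloacetate. Fh1 (ENSMUSG00000026526, chr1:175600374-175625635, - strand) was at 133, 114 and 106 FPKM in sham and at 78.9, 95.7 and 112 in VO. Mdh2, the mitochondrial malate dehydrogenase (ENSMUSG00000019179, chr5:135778480-135790398, + strand), was at 262, 232 and 209.6 FPKM in sham and at 148, 207 and 218 in VO. In both, VO 3 alone of the VO libraries reached into the sham range. These transcripts had the smallest unadjusted p-values of the 9. Fh1 had a log2 fold change of -0.31 (95% interval -0.69 to 0.07, unadjusted p = 0.0939, limma's adjusted p = 0.442). For Mdh2 it was -0.31 as well (-0.74 to 0.12, unadjusted p = 0.131, adjusted p = 0.476). Their ratio, Fh1 to Mdh2, was 0.506, 0.493 and 0.508 in sham and 0.533, 0.462 and 0.513 in VO, with equal means of 0.502 ± 0.0083 and 0.503 ± 0.0368 (SD, n = 3 each; exact permutation p = 1). The Fh1 gene overlaps Kmo, on the opposite strand, over 5255 bases. Whether reads were counted by strand is not given in the sources used here, and Kmo was read at a mean of 0.137 FPKM.

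**Figure D3:**
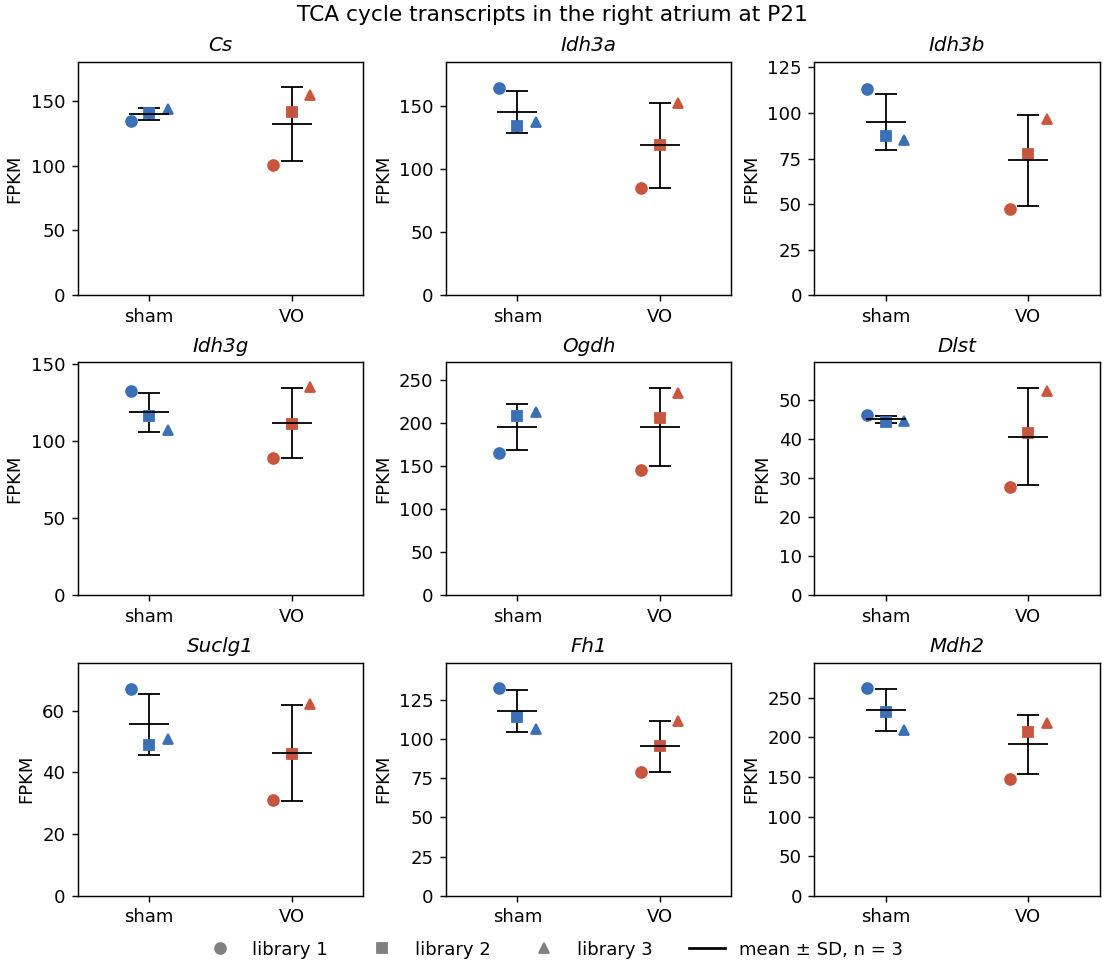
FPKM of the 9 transcripts in the 3 sham (blue) and 3 VO (red) libraries, on linear axes from 0, with the mean ± SD (n = 3). VO 1 is lowest in every panel, VO 3 is highest in 4, and the groups overlap in all 9.

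In level, which FPKM puts on a per-length scale, the 9 were among the abundant transcripts, at percentiles 92.7 to 98.9 of the mean FPKM of tested genes. Mdh2 was highest in sham at 235 ± 26.2 FPKM, followed by Ogdh, Idh3a, Cs, Idh3g, Fh1, Idh3b and Suclg1, with Dlst lowest at 45.0 ± 0.930 (SD, n = 3 each). Neighbours whose sham ranges overlapped were Mdh2 and Ogdh, Idh3a and Cs, Idh3g and Fh1, and Fh1 and Idh3b. Between Ogdh and Idh3a, Cs and Idh3g, Idh3b and Suclg1, and Suclg1 and Dlst they did not overlap, and the order of each of these pairs was the same in all 6 libraries. A member was covered by 2596 to 21068 fragments in a library, so counting error was at most 1.96%.

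Sham 1 also stood apart. Relative to the mean of sham 2 and sham 3, it was at 1.19 to 1.34 for the 6 members with the shortest gene models, at 1.04 for Dlst, 0.944 for Cs and 0.782 for Ogdh, which have the 3 longest, between 5456 and 9559 bases. This split by length was noticed after the values were seen. With the trend in expression level and gene length removed from each library, the members had a median log2 fold change of -0.14 and 6 of 9 were lower in VO, while Cs (0.04), Idh3g (0.10) and Ogdh (0.14) were higher.

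**Figure D4:**
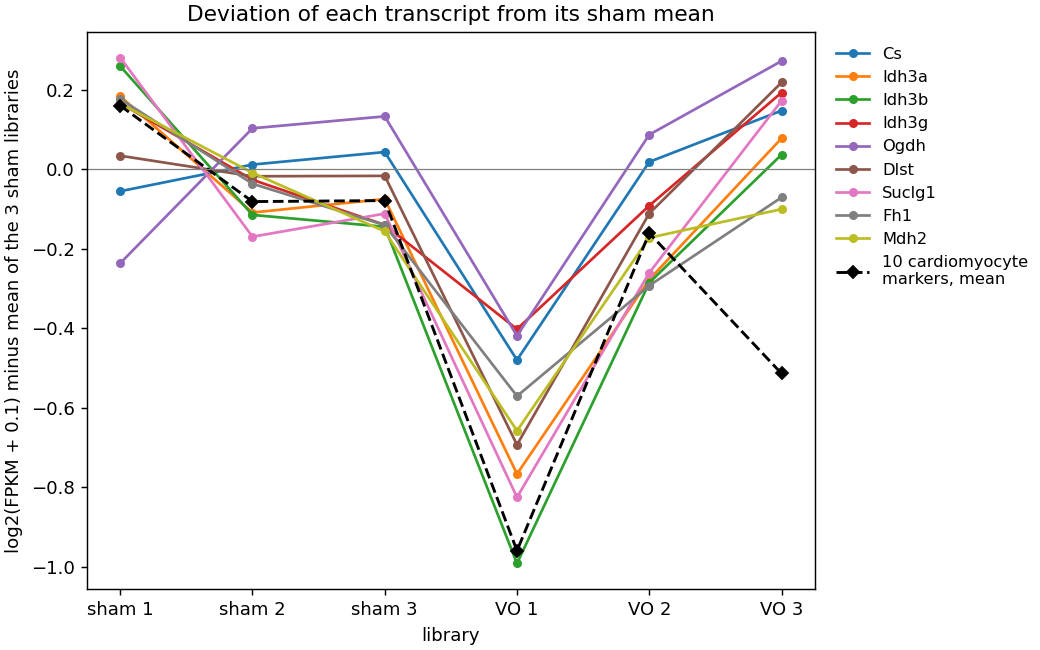
Log2(FPKM + 0.1) of each transcript minus its mean over the 3 sham libraries, by library, with the mean of 10 cardiomyocyte markers as a dashed line. The transcripts and the markers are both lowest in VO 1, and in VO 3 the members average 0.11 above the sham mean while the markers average 0.51 below it.

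The result depended on which VO library was included. VO 3 was also the VO library without Xist, so leaving it out kept only VO libraries with Xist, while sham held both kinds. Without VO 3, the log2 fold changes ran from -0.64 to -0.17 with a median of -0.42, and 3 of 9 members had an unadjusted p under 0.05, where 7.55% of all genes did so in the lower direction. In limma's test these were Idh3a (-0.52, unadjusted p = 0.0362, adjusted p = 0.419), Idh3b (-0.64, unadjusted p = 0.0414, adjusted p = 0.419) and Fh1 (-0.43, unadjusted p = 0.0366, adjusted p = 0.419). Without VO 1, in contrast, 5 of 9 were lower, the median was -0.04 and the smallest adjusted p was 0.758. With VO 2 alone, the VO library whose cardiomyocyte, leukocyte and fibroblast sums were nearest to sham, against the 3 sham libraries, 7 of 9 were lower and the median was -0.17, with the spread taken from the sham libraries alone. Averaged over the 9 members, VO 1, 2 and 3 lay at -0.65, -0.15 and 0.11 from the sham mean on the log2 scale. The 10 cardiomyocyte markers lay at -0.96, -0.16 and -0.51 in the same libraries. The difference, members minus markers, was -0.05, 0.04 and 0.01 in sham and 0.31, 0.01 and 0.62 in VO, so that VO 2 lay within the sham range and VO 1 and VO 3 above it. The paper reports Myh6, Tnnt2 and Actn2, which are among these markers, as lower in VO. The difference therefore cannot separate cell number from expression of the markers.

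**Figure D5:**
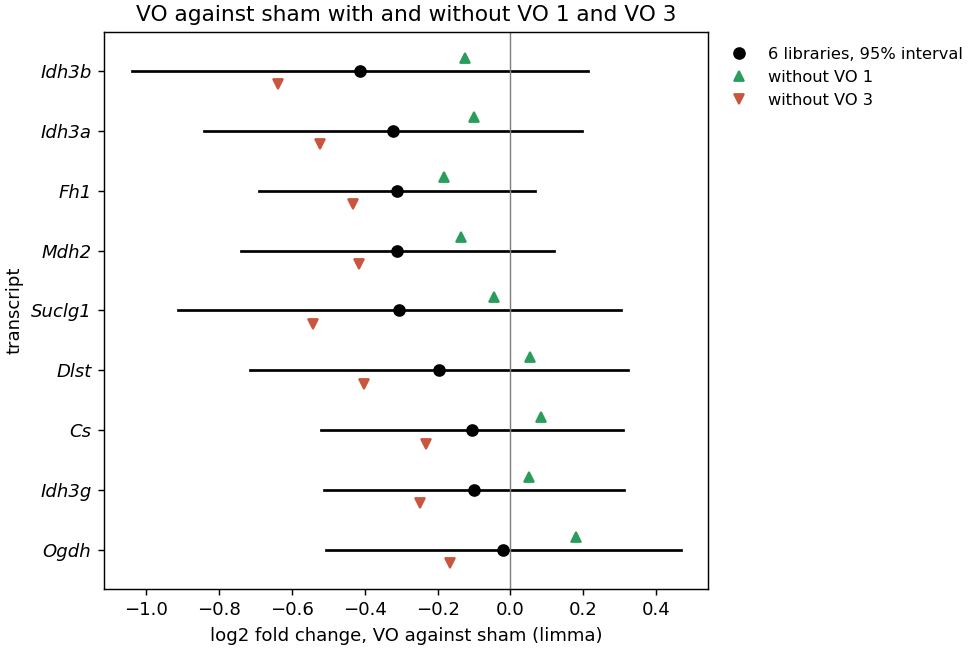
Log2 fold change of VO against sham for the 9 transcripts with its 95% interval in the fit of all 6 libraries (black) and after leaving out VO 1 (green) or VO 3 (red). Intervals are drawn for the fit of 6 libraries only, and all 9 include 0. All 9 black points are below 0 (6 of 9 with TPM or quantile normalization, 8 of 9 with scaling by fragment totals), and the green points of Cs, Idh3g, Ogdh and Dlst are above 0.

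Of 11 further cycle genes, 10 could be tested and Csl, a citrate synthase-like gene, was listed at 0 in all libraries. Of the 10, 8 were lower and 2 higher in VO, the median being -0.22 on the log2 scale (4 lower and 6 higher with quantile normalization, 8 lower and 2 higher with TPM or fragment totals, all 10 lower without VO 3, 5 lower and 5 higher without VO 1). Succinate dehydrogenase, which is also complex II of the respiratory chain, had the 4 log2 fold changes -0.23 (Sdha), -0.36 (Sdhb), -0.44 (Sdhc) and -0.40 (Sdhd). Sdhc, a membrane anchor subunit, was at 125, 93.7 and 98.1 FPKM in sham and at 61.9, 83.2 and 89.4 in VO. It was the only cycle gene whose groups did not overlap and the only one with an unadjusted p under 0.05 (0.0462), and its limma adjusted p was 0.414. Among all genes tested, 21.2% did not overlap and 12.0% had an unadjusted p under 0.05, so 1 of 10 is no more than those shares. That unadjusted p of Sdhc was above 0.05 with TPM, quantile normalization, fragment totals, robust variance, no variance trend or array weights. The same held with the replicate block, the trend removed or any library but VO 3 left out. Without VO 1 the limma difference was -0.28 (unadjusted p = 0.117, adjusted p = 0.705). Log2 fold changes of 5 others were -0.16 for Idh2 (NADP-dependent isocitrate dehydrogenase), -0.25 for Dld (the E3 component shared by the ketoacid dehydrogenases), -0.17 for Sucla2 and 0.02 for Suclg2 (the ATP- and GTP-specific beta subunits of succinyl-CoA ligase) and 0.08 for Ogdhl, which was read at only 0.545 to 1.51 FPKM.

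Entry of pyruvate was described with 14 genes, of which 9 were lower and 5 higher (median -0.16; 7 lower and 7 higher with quantile normalization). Pdk4, the kinase that switches off pyruvate dehydrogenase when fatty acids are burned, was at 140, 77.3 and 119 FPKM in sham and at 147, 193 and 233 in VO. All VO values lay above all sham values, with a log2 fold change of 0.79 ± 0.26 (SE), an unadjusted p of 0.0189 and a limma adjusted p of 0.404. Pdk4 was highest in VO 3, the library with the fat markers, and its limma difference was 0.63 without VO 3 (unadjusted p = 0.0654, adjusted p = 0.419) and 0.54 without sham 2 (unadjusted p = 0.0548, adjusted p = 0.546). The difference was larger than in the main fit with TPM (0.93), with quantile normalization (1.04), without VO 1 (0.97) and without sham 1 (0.97). Its adjusted p was above 0.05 in each of these limma fits. Pdha1, the target subunit of that kinase, was at 176, 151 and 147 FPKM in sham and at 102, 139 and 157 in VO (-0.27, adjusted p = 0.510). Pcx, pyruvate carboxylase, is named after its values were seen: it was at 2.66 to 2.88 FPKM in sham, 1.06 in VO 1, 1.98 in VO 2 and 20.1 in VO 3.

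Among 15 genes of the malate-aspartate shuttle and of citrate and malate outside the cycle, 7 were lower and 8 higher (median 0.03), counts that held under the other scalings but were 12 lower and 3 higher without VO 3. Slc25a12, the aspartate-glutamate carrier of heart and muscle, was at 33.8, 30.2 and 29.1 FPKM in sham and at 21.2, 24.7 and 25.4 in VO. Its groups did not overlap, and the log2 fold change was -0.38 ± 0.12 (SE, unadjusted p = 0.0132, limma's adjusted p = 0.404). The cytosolic enzymes of the shuttle were the most abundant of the list. Mdh1 was at 712, 623 and 630.4 FPKM in sham and at 426, 566 and 554 in VO, again without overlap (-0.36, adjusted p = 0.422). Got1 was at 222, 192 and 175 in sham and at 110.4, 181 and 170.1 in VO (-0.38, adjusted p = 0.461). Acly and Slc25a1, which serve citrate export for fat synthesis and are named after their values were seen, were at 25.7 and 15.0 FPKM in VO 3, against 11.5 to 14.0 and 2.78 to 4.86 in the other 5 libraries.

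Of 13 transcription factors, coactivators and deacylases that act on mitochondrial genes, 9 were lower and 4 higher (median -0.07; 5 lower and 8 higher with TPM, 6 and 7 with fragment totals). Esrra, the estrogen-related receptor that drives many TCA cycle and respiratory genes, was at 53.4, 43.1 and 38.2 FPKM in sham and at 21.4, 37.8 and 33.3 in VO. Its groups did not overlap, with a log2 fold change of -0.57 ± 0.23 (SE, unadjusted p = 0.0439, limma's adjusted p = 0.414). The unadjusted p of Esrra in limma's fit was above 0.05 with TPM, quantile normalization, fragment totals, no variance trend or array weights. The same held with the replicate block, the trend removed, or sham 1, sham 2, VO 1 or VO 3 left out. Without VO 1 the limma difference was -0.33 (unadjusted p = 0.0931, adjusted p = 0.705). Mef2d, the other of the most abundant pair in the list, differed by 0.06 (adjusted p = 0.846). Of the 53 pyruvate, shuttle, regulator and remaining cycle genes together, all but Csl were tested. Among those tested, 4 had an unadjusted p under 0.05 and none an adjusted p under 0.05 in limma's test, where 12.0% and 0.00792% of all genes tested did.

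As a description, with no test, the promoters of the members were read for motifs of factors known to act on mitochondrial genes. RefSeq promoter windows (GRCm38.p6, the bases around each start) were matched for 8 of the 9, all but Idh3a. AAGGTCA, the recognition motif of ERR factors, is in a window of 1 of 8 members on either strand and in 5.38% of all 27025 genes. GCGCATGC, the core of the NRF1 site, is in 1 of 8 and in 3.05% of genes. CCGGAAG, bound by ETS factors such as GABP, is in 3 of 8 (Dlst, Idh3b, Idh3g) and in 9.93% of genes. GGGCGG, the GC box of SP1, is in 5 of 8 (Cs, Dlst, Fh1, Mdh2, Ogdh) and in 38.2%. Ogdh is shown because it alone holds the ERR motif and followed the other members least, with 2 of its 6 windows, and Idh3b because its difference between groups was the largest. Each is written 5′ to 3′ on the strand of the gene, with capitals for any of the 4 motifs on either strand.
Ogdh promoter, chr11:6291920-6292219, + strand: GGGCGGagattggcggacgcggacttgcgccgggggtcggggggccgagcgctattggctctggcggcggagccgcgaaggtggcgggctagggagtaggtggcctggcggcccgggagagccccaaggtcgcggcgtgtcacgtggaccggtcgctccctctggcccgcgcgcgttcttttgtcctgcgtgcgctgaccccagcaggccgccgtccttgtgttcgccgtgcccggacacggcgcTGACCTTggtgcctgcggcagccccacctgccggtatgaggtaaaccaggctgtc
Ogdh promoter, chr11:6292308-6292607, + strand: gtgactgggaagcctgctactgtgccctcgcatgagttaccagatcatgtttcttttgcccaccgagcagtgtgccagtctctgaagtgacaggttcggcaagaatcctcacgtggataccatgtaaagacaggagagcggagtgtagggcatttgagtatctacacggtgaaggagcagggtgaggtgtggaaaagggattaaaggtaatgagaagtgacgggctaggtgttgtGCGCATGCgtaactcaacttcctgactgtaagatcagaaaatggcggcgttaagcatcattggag
Idh3b promoter, chr2:130284402-130284701, - strand: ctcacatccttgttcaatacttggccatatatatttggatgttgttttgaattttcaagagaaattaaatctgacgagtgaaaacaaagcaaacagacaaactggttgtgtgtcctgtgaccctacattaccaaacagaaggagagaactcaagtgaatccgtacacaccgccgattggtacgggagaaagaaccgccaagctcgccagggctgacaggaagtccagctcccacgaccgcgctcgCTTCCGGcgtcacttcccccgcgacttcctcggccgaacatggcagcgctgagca
In the Ogdh windows the capitals mark, in order, a GC box and an ERR motif read on the opposite strand, and the NRF1 core, and in Idh3b an ETS motif read on the opposite strand. A match is a run of letters and says nothing about binding in these atria.

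The genes whose values followed the mean of the 9 members most closely over the 6 libraries were Phyh (peroxisomal phytanoyl-CoA hydroxylase, Pearson r = 0.997), Sdha (0.996), Cacybp (0.995), Lonp1 (the protease of the mitochondrial matrix, 0.995) and Ces1d (a carboxylesterase, 0.994). All genes share the same 6 libraries, in which VO 1 was the lowest for 9 of 9 members, and 554 genes (4.39%) had an r above 0.9. Among the members, r with the mean of the other 8 was 0.593 for Ogdh, 0.885 for Cs and 0.908 to 0.983 for the remaining 7.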

How the data were processed

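Sequencing of RA RNA gave 6 libraries, 3 sham and 3 VO. The authors aligned reads with HISAT2 2.0.5, counted them on genes with featureCounts 1.5.0-p3 and deposited FPKM values; GRCm38 is the build in the submitters' processing notes. The table holds 54093 genes and 1 incomplete line, which was left out. Each FPKM was a whole multiple (within 0.01) of 1 fragment in 100% of values, which gave back 15963082 to 17237903 fragments per library. FPKM were scaled by the median of ratios (factors of 1), kept at a mean of at least 1, transformed as log2(FPKM + 0.1), which understates changes of low genes, and compared with limma 3.58.1 (R 4.3.3: lmFit, eBayes with trend; two-sided, Benjamini-Hochberg over 12627 genes, threshold 0.05). Ratios were compared by exact permutation. The study's own count test was not repeated. Scripts were tested on simulated data. The members, named by symbol, and the lists were chosen with earlier results of these data known. Named are all members, the cycle genes (1 is not reported here), list genes at an unadjusted p under 0.05, the 2 most abundant of each list, and the 5 genes most like the members. Alternatives were other pseudocounts, filters, scalings and variance models, voom on recovered fragments, a replicate block and each library left out.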

Additional observations from a re-analysis of the deposited data

How the results depend on the processing

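Over 22 alternatives, 178 of 198 log2 fold changes of the members were lower in VO and none had an adjusted p under 0.05 (lowest 0.379, mean FPKM of at least 5). Idh3a, Idh3b, Suclg1, Fh1 and Mdh2 were lower in all 22, Dlst in 21, Cs and Idh3g in 17 and Ogdh in 13. Filters, deposited FPKM, no variance trend, robust variance and the replicate block left each fold change as in the main fit. Those signs were fixed in advance. Of the other settings, TPM, quantile normalization and the trend removed gave 6 of 9 lower. Fragment totals gave 8, array weights and VO 2 alone 7, and pseudocounts and voom 9. Leaving out VO 1 gave 5, and leaving out another library 8 or 9. Cs, Idh3g and Ogdh turned positive with TPM (0.035, 0.039 and 0.12), quantile normalization (0.11, 0.11 and 0.26) and removal of trends in level and gene length (0.042, 0.10 and 0.14). Ogdh was also positive with fragment totals (0.074), Idh3g and Ogdh with array weights (0.045 and 0.0098), and Cs and Ogdh with VO 2 alone (0.019 and 0.087). With each library left out in turn, Cs ranged from -0.23 to 0.083, Idh3g from -0.25 to 0.051, Ogdh from -0.17 to 0.18 and Dlst from -0.40 to 0.054, the highest each time without VO 1, and 0 to 3 members had an unadjusted p under 0.05, the 3 without VO 3. The median of the members ranged from -0.42 to -0.04. The cause was not tested.

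Over all genes, the 1 with an adjusted p under 0.05 became 2 with a pseudocount of 1, 3 with a filter of 0.1 FPKM or without a variance trend, and 0 with quantile normalization, robust variance, the replicate block, VO 2 alone, the trend removed or any library left out. The 1511 genes with an unadjusted p under 0.05 became 521 with VO 2 alone and 855 (without sham 1) to 1998 (without VO 2) with a library left out. The 4 genes of the other lists became 2 with quantile normalization, array weights, no variance trend, the replicate block or the trend removed, 1 with VO 2 alone, and 1 (without sham 2) to 8 (without VO 3) with a library left out. VO 2 alone and the trend removal were added after the data were seen. With VO 2 alone the spread came only from the 3 sham libraries, and the lone VO library is assumed to vary like them.

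Replicate numbers did not pair the libraries: deviations of same-numbered libraries correlated at -0.108, 0.0112 and -0.0292 across genes, and no library correlated best with its own number. The fit with the replicate block gave 932 genes at an unadjusted p under 0.05 and no member. Counting error of a member was at most 1.96%, and each group holds 3 libraries.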
